A study of Mus musculus with 4 samples.

Results

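Prostaglandins are made and cleared by enzymes, a carrier and receptors that stromal cells of the gut wall can all express. The level of 10 such genes was described across the stromal cells of the mouse small intestine. The genes were chosen for their known roles, with earlier results of these data known, and are 10 of the 18619 genes listed for the library. They are the phospholipase Pla2g4a, the cyclooxygenases Ptgs1 and Ptgs2, the terminal synthases Ptges and Ptgis, the carrier Slco2a1, the degrading enzyme Hpgd, and the prostaglandin E2 receptors Ptger2, Ptger3 and Ptger4. All 10 had at least 50 unique molecular identifiers (UMIs, one per captured transcript) in the library, from 60 for Ptger3 to 8274 for Hpgd.

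Prostaglandin synthesis starts when a phospholipase frees arachidonic acid from membranes, which a cyclooxygenase turns into prostaglandin H2 and a terminal synthase into the final product, prostaglandin E2 with Ptges or prostacyclin with Ptgis. The signal ends when Slco2a1 carries the prostaglandin into a cell and Hpgd oxidizes it. In the gut, prostaglandin E2 from fibroblasts is known to act on epithelial stem cells and on immune and vascular cells through receptors that either raise cyclic AMP (Ptger2 and Ptger4) or lower it (Ptger3).

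The cells came from adult C57BL/6J mice in which tamoxifen, through a Cre-ERT2 recombinase driven by Pdgfrb, switched on tdTomato and deleted floxed Lats1 and Lats2, the kinases that restrain the coactivators YAP and TAZ. The muscle layer was removed, tissue was digested at body temperature, immune, epithelial and endothelial cells were depleted with beads, and tdTomato+ cells were sorted. Each group comprised 2 mice, and how they fall to the libraries is not given in the sources used here. The series had 4 samples, 2 WT libraries (wild type, with the reporter), 1 LATS1/2 KO library at 1 week and 1 at 2 weeks after tamoxifen. All values are from the LATS1/2 KO library at 1 week. Nothing below is therefore an effect of the deletion, there was no replicate and no test, and all contrasts are between kinds of cells of that library. All brackets give exact 95% intervals for counting error alone, which miss the spread between mice and between cells of 1 kind.

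The library held 4108 cells and 46054627 UMIs (median 10726 in a cell). The floxed genes Lats1 (14.2 CPM, UMIs per 1000000 UMIs) and Lats2 (53.5 CPM) were still counted, but without a WT level and with counts from transcript ends this does not check the deletion. Of 10 clusters, 5 matched a marker list and are called vFB3-like (45 cells), FB4-like (691), FB5-like (204), SMC-like (smooth muscle, 76) and MC-like (mural cells, 70). The other 5, clusters 1, 2, 4, 5 and 6 with 3022 cells, are called villus clusters after the villus fibroblast marker Adamdec1, at 4132 to 6426 CPM in each, although the SMC-like cluster also had 4237 CPM. The other villus markers did not set them apart, since Shisa3 was at 60.9 to 106 CPM in them and at 126 CPM in the FB4-like cluster, and Serpina3n at 62.5 to 258 CPM and 237 CPM. By the marker rule clusters 2, 4 and 6 carried 0 of the 3, and clusters 1 and 5 carried 1 of the 3 and 2 of the 4 FB4 markers. Clusters 2 and 6 carried 3 of the 5 vFB3 markers, short of the share set for a name, so vFB3-like here means the small cluster with all 5 (P2rx1, Mmp10, Fhl2, Tacr1, Itga8). The FB5-like cluster also carried 4 of 6 SMC markers and the MC-like cluster 5 of 6, and the vFB3-like cluster carried 3 of 6 FB5 markers. All 4108 cells had a Pdgfrb UMI. After the authors' removal of immune and endothelial clusters, Pecam1, Cd3e, Vil1, Krt8, Krt18 and the mesothelial Msln had 0 UMIs, and the summed endothelial markers reached at most 20.7 CPM, in the MC-like cluster. The names were rebuilt here and may differ from the study's. None of the 10 genes entered the clustering, but genes that vary with them did, so differences between clusters are descriptions.

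All 10 genes lie on autosomes (mm10, GENCODE M21), and 3 of them on chromosome 2, namely Ptges at chr2:30889471-30929863, Ptgs1 at chr2:36230426-36252272 and Ptgis at chr2:167191805-167240604. Ptgs2 (chr1:150100031-150108227, plus strand) and Pla2g4a (chr1:149829618-149961290, minus strand) are neighbours, with 138740 bases and 0 protein-coding genes between them. The others are Hpgd at chr8:56294585-56321043, Slco2a1 at chr9:102988712-103096002, Ptger2 at chr14:44988195-45003820, Ptger3 at chr3:157566892-157645888 and Ptger4 at chr15:5206661-5244187. Ptger4 overlaps Ttc33 on the opposite strand and Ptger2 overlaps the antisense model Gm17173, both of which are counted as genes of their own in this library.

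Promoter sequences from RefSeq (GRCm38.p6) were available for 9 of the 10 genes, all but Ptgis, and were searched on both strands over 300 bases, 250 before and 50 after the start. The 6 motifs were the CRE half-site TGACG, AP-1 (TGANTCA), TEAD (GGAATG), the E-box CACGTG, the TATA box TATAAA and the NF-kB site. At least 1 of them was found in 5 genes. The level of Ptgs2 followed the immediate early genes among villus cells but not over all clusters. In this gene a CRE half-site and an overlapping E-box began at bases 14 and 17 of the first exon. This stretch of 30 bases is at chr1:150100039-150100068 on the plus strand, with the joined motifs in capitals.
Ptgs2 first exon: cactaCGTCACGTGgagtccgctttacaga
Over all 32851 promoters of this length, 20.8% held a CRE half-site and 7.15% this E-box. The windows of Ptgs1 and Ptger2 are shown because the levels of these genes ran in parallel over the clusters, and that of Slco2a1 because most of its UMIs lay in the smallest cluster. The starts used are those of RefSeq, and that of Slco2a1 lies inside the gene span given above. Each window gives the 250 bases before the start, at chr2:36230176-36230425, chr14:44987861-44988110 and chr9:103008237-103008486, all on the plus strand.
Ptgs1: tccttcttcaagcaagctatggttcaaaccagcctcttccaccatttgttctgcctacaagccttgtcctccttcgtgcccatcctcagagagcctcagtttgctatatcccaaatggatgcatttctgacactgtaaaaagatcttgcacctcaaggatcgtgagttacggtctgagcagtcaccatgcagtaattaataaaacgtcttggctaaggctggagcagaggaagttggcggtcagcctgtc
Ptger2: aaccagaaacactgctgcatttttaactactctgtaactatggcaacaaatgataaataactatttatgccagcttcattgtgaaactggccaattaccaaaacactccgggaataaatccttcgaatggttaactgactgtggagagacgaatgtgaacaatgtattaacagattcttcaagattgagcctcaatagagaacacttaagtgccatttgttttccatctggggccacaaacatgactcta
Slco2a1: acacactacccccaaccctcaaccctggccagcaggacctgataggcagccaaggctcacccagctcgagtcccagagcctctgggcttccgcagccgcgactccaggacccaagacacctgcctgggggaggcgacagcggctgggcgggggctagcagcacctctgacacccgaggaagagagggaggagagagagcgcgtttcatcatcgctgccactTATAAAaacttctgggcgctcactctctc
Only the TATA box of Slco2a1, which began 29 bases before the start, is in capitals, and 13.6% of all promoters held one within 300 bases. The other matches were a TEAD motif in Ptges (14.7% of promoters) and the letters TATAAA in Hpgd and in 1 of 2 windows of Pla2g4a. In Hpgd these letters began at base 5 of the first exon. In Pla2g4a they began 200 bases before the start and were read on the opposite strand (TTTATA). AP-1 (7.81% of promoters) and NF-kB (0.411%) matched no member. The letters describe these windows and say nothing of which factors bind there.

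Each of the 10 genes differed between clusters by more than 2-fold, with 10 of 10 highest-to-lowest ratios having an interval wholly above 2, against 24.7% of the 12385 genes with at least 50 UMIs. Ptger3 had 50 or more only through the 38 in its highest cluster, so its place in this count follows from its own value. The highest level lay in the vFB3-like cluster for 4 genes (Ptgs1, Ptges, Slco2a1, Ptger2), in the FB4-like cluster for 2 (Hpgd, Ptger3), in the FB5-like cluster for Ptgis and in villus clusters for 3 (Ptgs2, Ptger4, Pla2g4a). Free RNA in the droplets could give on average at most 8.64% of a gene's library level, a bound set by the mean of Y-linked UMIs over the 2004 cells that carried 5 or more UMIs of Xist.

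**Figure D1:**
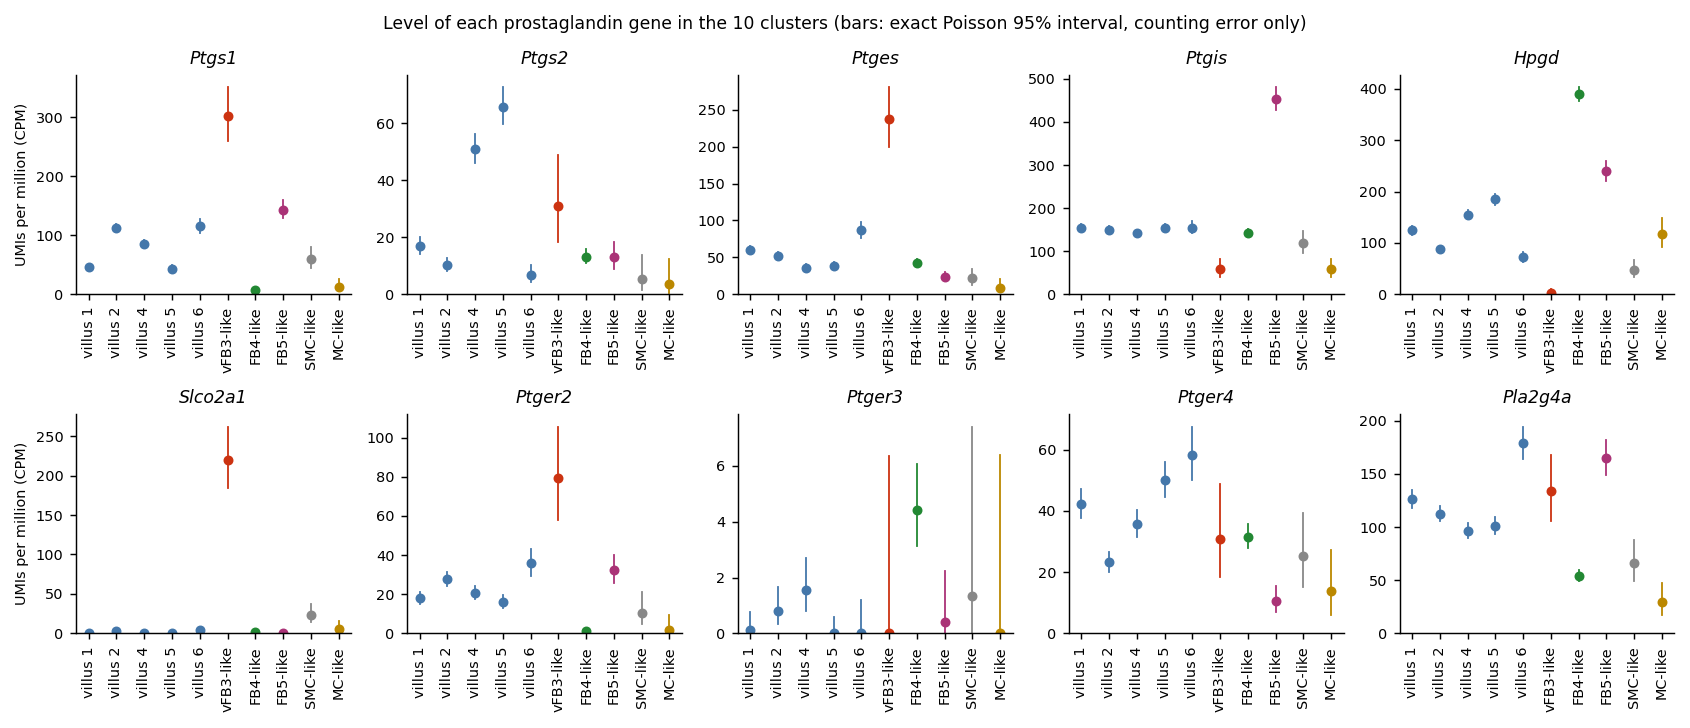
Level of each of the 10 genes in CPM (linear axes from 0, scaled per gene) in the 5 villus clusters (blue) and the 5 named clusters. Points are levels and bars exact Poisson 95% intervals. Ptgs1, Ptges, Slco2a1 and Ptger2 peak in the vFB3-like cluster, where Hpgd is near 0.

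Pla2g4a, the cytosolic phospholipase that frees arachidonic acid, was counted in every cluster. Its level was 178.9 CPM in cluster 6, 164.7 in the FB5-like, 134.2 in the vFB3-like, 126.1 in cluster 1, 112.7 in cluster 2, 101.3 in cluster 5 and 96.2 in cluster 4, and 66.4 in the SMC-like, 54.4 in the FB4-like and 29.4 CPM in the MC-like cluster. All 5 villus clusters were thus above the FB4-like cluster, which stood at 0.470 (0.426 to 0.517) of their pooled level. No step among the first 4 places exceeded counting error, whereas cluster 4 was 1.45-fold (1.09 to 1.97) above the SMC-like cluster.

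Ptgs1, the cyclooxygenase usually called constitutive, differed widely between clusters. It was at 302.7 CPM in the vFB3-like cluster, 143.7 in the FB5-like, 115.7 in cluster 6, 112.6 in cluster 2, 85.1 in cluster 4, 59.8 in the SMC-like, 45.7 in cluster 1, 43.2 in cluster 5, 12.1 in the MC-like and 6.76 CPM in the FB4-like cluster. The 6.76 CPM of the FB4-like cluster (58 UMIs in 691 cells) were close to the 6.09 CPM that free RNA could give at most. That bound is an upper limit, and Hpgd at 1.72 CPM in the vFB3-like cluster lay well below its bound of 15.5 CPM. Whether these FB4-like cells had a Ptgs1 level of their own was not tested. Among the cells of the vFB3-like cluster, 42 of 45 (93.3%) had a Ptgs1 UMI and 15 had 5 or more, while in the FB4-like cluster 41 of 691 (5.93%) had one and 0 had 5 or more.

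Ptgs2, the inducible cyclooxygenase, had a different map. It reached 65.9 CPM in cluster 5 and 50.8 CPM in cluster 4, then 31.0 in the vFB3-like, 16.8 in cluster 1, 13.2 in the FB4-like, 12.9 in the FB5-like, 10.3 in cluster 2, 6.77 in cluster 6, 5.31 in the SMC-like and 3.46 CPM in the MC-like cluster. Clusters 4 and 5 together gave 66.4% of all its UMIs, and from cluster 1 downward no neighbour in this order was separated from the next. It was also uneven from cell to cell, since the 206 cells with the most UMIs held 68.4% of its 1201 UMIs, against 40.2% for the less counted Ptger2, 33.9% for Ptger4, 28.9% for Ptges and 19.8% for Ptgis. The maximum was 30 UMIs in a cell of cluster 5, where 436 of 564 cells had 0 and 7 had 10 or more. Its counts were thus carried by few cells.

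Ptges, the inducible synthase of prostaglandin E2, was at 237.4 CPM in the vFB3-like cluster and at 86.7 CPM in cluster 6, the next. It fell in the range of 35.8 to 59.5 CPM in clusters 1, 2, 4, 5 and the FB4-like cluster, and was at 23.0, 21.3 and 8.64 CPM in the FB5-like, SMC-like and MC-like clusters. Ptgs1 and Ptges thus shared their highest cluster. They did not share their lowest, as the FB4-like cluster with almost no Ptgs1 had 42.9 CPM of Ptges.

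Ptgis, prostacyclin synthase, was the most even of the members among villus cells, with 153.5, 149.8, 141.4, 153.6 and 154.7 CPM in clusters 1, 2, 4, 5 and 6, none separated from its neighbour in order. The FB4-like cluster (142.9 CPM) lay in the same range, and the FB5-like cluster stood apart at 452.9 CPM, 3.02-fold (2.83 to 3.23) above the villus clusters. In that cluster 112 of 204 cells (54.9%) had 5 or more Ptgis UMIs, compared with 2.80% to 6.64% in the villus clusters. The lowest levels were 58.7 CPM in the MC-like and 58.5 CPM in the vFB3-like cluster.

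Slco2a1, the prostaglandin carrier, was concentrated in 45 cells. The vFB3-like cluster held 128 of its 222 UMIs (57.7%) at 220.2 CPM, and the next were the SMC-like cluster at 23.9, the MC-like at 5.18, cluster 6 at 3.87, cluster 2 at 2.74 and the FB4-like at 1.87 CPM, with the others between 0.776 and 1.14 CPM. Of the vFB3-like cells 34 had a Slco2a1 UMI and 9 had 5 or more. Endothelial cells are a known site of this carrier, and of the 6 endothelial markers Pecam1, Cdh5, Kdr, Lyve1 and Prox1 had 0 UMIs and Emcn 1 UMI in the vFB3-like cluster. Adgrf5 and Plvap, which endothelial cells also express, were among the leading genes of that cluster, and the part of endothelial RNA was not tested. The SMC-like value rested on 5 of 76 cells, 1 of them with 9 UMIs, and on the columns marked M with 17 of its 18 UMIs.

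Hpgd, the enzyme that inactivates prostaglandins, ran opposite to the carrier. It was at 389.3 CPM in the FB4-like cluster, 240.2 in the FB5-like, 184.9 in cluster 5, 154.5 in cluster 4, 124.1 in cluster 1, 117.5 in the MC-like, 87.9 in cluster 2, 71.9 in cluster 6 and 47.8 CPM in the SMC-like cluster, and had 1 UMI (1.72 CPM) in the vFB3-like cluster. Every step in this order but that from cluster 1 to the MC-like cluster exceeded counting error. In the FB4-like cluster 610 of 691 cells (88.3%) carried it. The FB5-like cluster was mixed, since 66 of its 204 cells had 0 and 14 had 10 or more, up to 49 in 1 cell. Those 14 and those 66 cells, set apart after the values were seen, had Ptgis at 447.9 and 470.2 CPM, Ptgs1 at 149.3 and 130.8 CPM and Ptges at 58.7 (29.3 to 104.9) and 16.7 (8.63 to 29.2) CPM, and only the intervals of Ptges among the other members did not overlap. Of the 6 FB5 markers Sox6 was at 154.6 and 318.6 CPM, and the intervals of the other 5 overlapped.

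The 3 receptors each had their own pattern. Ptger2 was at 79.1 CPM in the vFB3-like cluster, 35.8 in cluster 6, 32.3 in the FB5-like, 27.8 in cluster 2, 20.7 in cluster 4, 17.9 in cluster 1, 16.1 in cluster 5, 10.6 in the SMC-like, 1.73 in the MC-like and 1.40 CPM in the FB4-like cluster, the last 2 at about its free RNA bound of 1.67 CPM. Ptger4 was at 58.3 CPM in cluster 6, 50.1 in cluster 5, 42.2 in cluster 1, 35.7 in cluster 4, 31.6 in the FB4-like, 31.0 in the vFB3-like, 25.2 in the SMC-like, 23.3 in cluster 2, 13.8 in the MC-like and 10.5 CPM in the FB5-like cluster. The FB4-like cluster thus kept a cyclic AMP-raising receptor in Ptger4 while its Ptger2 did not exceed that bound. Ptger3 had 60 UMIs in 44 cells of the whole library, 38 of them in the FB4-like cluster (4.43 CPM), 12 in cluster 4, 7 in cluster 2, 1 each in cluster 1, the FB5-like and the SMC-like cluster, and 0 elsewhere. A 0 allows up to 6.34 CPM in the vFB3-like cluster, so its absence there was not shown.

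Against the villus clusters pooled, a ratio was counted when it passed 1.5-fold and its interval excluded 1. In the vFB3-like cluster 4 of 9 genes with at least 50 UMIs were higher (12.0% of all genes were) and 2 lower (8.58%). Slco2a1 was 132-fold (95.8 to 185) higher, Ptges 4.68-fold (3.90 to 5.57), Ptgs1 3.85-fold (3.28 to 4.48) and Ptger2 3.51-fold (2.55 to 4.74). Hpgd was at 0.0134 (0.000340 to 0.0749) and Ptgis at 0.390 (0.270 to 0.546) of the villus level, and Ptgs2, Ptger4 and Pla2g4a lay at ratios of 0.993, 0.801 and 1.16 with intervals that include 1. The cluster thus combined the highest levels of a cyclooxygenase, the E2 synthase and the carrier with almost no degrading enzyme. These 45 cells were deep (median 12888 UMIs), had low immediate early genes (798 CPM summed over 7) and were 53.3% marked M.

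The size of the vFB3-like set depended on the clustering, and the levels with it. At resolution 1.0 the name covered 3 clusters and 571 cells, the same 45 cells, 360 cells mostly of cluster 2 and 166 mostly of cluster 6. Ptgs1 was at 302.7, 150.8 and 128.2 CPM in the 3 and Ptges at 237.4, 67.2 and 101.0 CPM. Slco2a1 was at 220.2, 4.55 and 3.63 CPM and Hpgd at 1.72, 63.7 and 61.1 CPM. The added cells were thus nearer to the villus clusters in all 4 genes. In the pooled 571 cells Ptgs1 was still 2.50-fold (2.32 to 2.70), Ptges 2.00-fold (1.81 to 2.21) and Slco2a1 21.7-fold (14.4 to 33.7) above the villus clusters, and Hpgd was at 0.404 (0.363 to 0.448). Ptger2 was 2.06-fold (1.77 to 2.39) higher. Ptgs2, with a ratio near 1 in the 45 cells, was at 0.301 (0.235 to 0.381) in the 571, and likewise at 0.353 with immediate early genes left out of the clustering and at 0.291 with nothing regressed out. Ptgis, lower in the 45 cells, was 1.12-fold (1.05 to 1.20) higher in the 571.

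In the FB4-like cluster, marked by Ackr4 and Grem1, 2 of 10 genes were higher (6.58% of all genes) and 4 lower (11.5%). Hpgd was 3.04-fold (2.91 to 3.18) and Ptger3 7.33-fold (4.16 to 13.3) higher. Ptgs1 was at 0.0859 (0.0650 to 0.111), Ptger2 at 0.0621 (0.0320 to 0.109), Ptgs2 at 0.422 (0.345 to 0.513) and Pla2g4a at 0.470 of the villus level. Ptger3 reached 50 UMIs only through its 38 UMIs in the FB4-like cluster, so its place in the count follows from the value itself. With the free RNA bound subtracted, Ptgs1 was at 0.00924 (0.00330 to 0.0205) and Ptger2 at 0 (0 to 0.0207) of the villus level. In this cluster the degrading enzyme was thus above the pooled villus level, and the phospholipase, both cyclooxygenases and Ptger2 were below it. Its Ptgs2 (13.2 CPM) was still above that of clusters 2 and 6 (10.3 and 6.77 CPM). The FB5-like cluster, next in Hpgd, had Pla2g4a at 164.7 and Ptgs1 at 143.7 CPM. Set directly against the FB4-like cluster, the vFB3-like cluster had 6 genes higher (19.7% of all genes) and 2 lower (12.3%), of 9 tested. Of the 6, Slco2a1 (128 and 16 UMIs) and Ptger2 (46 and 12 UMIs) reached 50 UMIs only through the vFB3-like cluster, so nothing is read from this count.

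The FB5-like cluster, where the markers Sox6 (293 CPM), Bmp7 (249 CPM) and Pdgfra (1986 CPM) were highest of all clusters but Foxl1 (12.5 CPM) and Wnt5a (181 CPM, against 208 CPM in the vFB3-like cluster) were not, had 3 of 9 genes higher than the villus clusters (11.7% of all genes) and 3 lower (14.4%). Ptgis was 3.02-fold, Hpgd 1.88-fold (1.72 to 2.05) and Ptgs1 1.83-fold (1.63 to 2.04) higher. Ptger4 was at 0.272 (0.177 to 0.400), Ptgs2 at 0.414 (0.282 to 0.588) and Ptges at 0.453 (0.342 to 0.590). These cells thus had more of the prostacyclin synthase and less of the E2 synthase. Markers of interstitial cells of Cajal summed to 226 CPM here, of which Etv1 gave 223 CPM, Kit 2.02 and Ano1 1.21 CPM. Immune markers summed to 56.9 CPM, of which Lyz2 gave 55.3 CPM, with Ptprc and Cd52 at 0, and the part of other cells in these values was not tested.

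The MC-like cluster had 0 of 9 genes higher (12.1% of all genes) and 7 lower (9.54%), with ratios from 0.0767 for Ptger2 to 0.392 for Ptgis, and Hpgd was at 0.918 of the villus level. Its cells were the shallowest, with a median of 6853 UMIs. The SMC-like cluster had 1 of 9 genes higher (10.0%) and 5 lower (9.59%). Its higher gene was Slco2a1, 14.4-fold (7.95 to 24.9) on the few cells described above, and the lower ones ran from Ptgs2 at 0.170 to Pla2g4a at 0.573. Ptgs1 and Ptgis in the SMC-like cluster were not past 1.5-fold.

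The deletion acts through YAP and TAZ, so the villus clusters were split by 2 of their target genes, Amotl2 and Ajuba, which summed to 206 and 301 CPM in clusters 2 and 4 (high, 1400 cells) and to 55.9, 82.2 and 61.9 CPM in clusters 1, 5 and 6 (low, 1622 cells). Vegfc (244 and 210 CPM in clusters 2 and 4, 39.6 to 44.7 CPM in the others) and Lats2 (64.9 and 81.9 CPM, against 31.5 to 44.5 CPM) followed this split. Of the YAP/TAZ targets Ctgf, Cyr61 and Axl did not, as Ctgf was at 92.7 and 88.2 CPM in clusters 2 and 4 but also at 88.6 CPM in cluster 6, Cyr61 was higher in cluster 5 (385 CPM) than in cluster 2 (168 CPM), and Axl was lowest in cluster 2 at 119 CPM. Of 9 members, 1 was higher in the high clusters (5.12% of all genes) and 1 lower (7.45%). Ptgs1 was at 99.7 CPM in the high and 57.9 CPM in the low clusters, a ratio of 1.72 (1.59 to 1.87), and of 1.97 (1.71 to 2.28) and 1.69 (1.54 to 1.87) within the clusters high and low in immediate early genes. The ratio fell to 1.38 with immediate early genes left out of the clustering and to 1.42 with nothing regressed out, below 1.5-fold in both. Ptgs1 did not follow the targets cluster by cluster, since cluster 6, low in both targets, had the 115.7 CPM given above, and cluster 2 stood at 0.973 of it. Ptger4 was at 29.1 and 48.1 CPM, a ratio of 0.605 (0.539 to 0.678), which was 0.496 (0.419 to 0.585) within the clusters low in immediate early genes and 0.713, not past 1.5-fold, within the high ones. It was also not past 1.5-fold at resolution 1.0 (0.788), with immediate early genes left out of the clustering (0.671) or in F columns (0.677). Ptger3 had 19 UMIs in the high and 1 in the low clusters, too few to be counted.

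FB4-like cells fell into 2 clusters at resolution 1.0, of 164 and 529 cells with 380 and 91.3 CPM of the 2 targets, a split examined after the data were seen. Of 7 members tested there 0 passed in either direction (5.28% of all genes were higher, 6.76% lower). Ptger3, below the 50 UMIs asked for, had 29 and 9 UMIs, a ratio of 9.58 (4.41 to 23.0), from which nothing is read.

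Immediate early genes, which respond to stimuli and also to tissue dissociation, split the villus clusters differently. Fos, Fosb, Jun, Junb, Egr1, Atf3 and Ier2 summed to 5840 and 9245 CPM in clusters 4 and 5 (high, 1241 cells) and to 2091, 497 and 1143 CPM in clusters 1, 2 and 6 (low, 1781 cells). Of 9 members, 2 were higher in the high clusters (6.76% of all genes) and 2 lower (2.81%). Ptgs2 was at 57.5 and 12.2 CPM, a ratio of 4.70 (4.06 to 5.46), with 4.95 (3.92 to 6.29) and 4.76 (3.93 to 5.79) within the clusters high and low in YAP/TAZ targets. Hpgd was at 168 and 99.2 CPM, a ratio of 1.69 (1.59 to 1.80). Ptges was at 37.2 and 60.5 CPM, a ratio of 0.614 (0.552 to 0.681), and Slco2a1 had 13 and 42 UMIs, a ratio of 0.429 (0.211 to 0.815). The Slco2a1 difference lay in clusters 2 and 6 (2.74 and 3.87 CPM), as cluster 1 was at 0.814 and cluster 5 at 1.14 CPM. Slco2a1 was not counted at resolution 0.2 or 1.0, nor with the free RNA bound subtracted. The opposite directions of Ptgs2 and Ptges depended on the clustering, since Ptges was at 1.28 at resolution 0.2, where Ptgs2 was at 1.14, and at 1.04 with nothing regressed out. Ptges was also not past 1.5-fold at resolution 1.0 (0.678), with immediate early genes left out of the clustering (0.748), with M and F columns integrated (0.709) or in F columns (0.732). The Ptgs2 ratio was 2.06 with nothing regressed out, 2.51 with immediate early genes left out and 2.88 at resolution 1.0, so its direction stayed but its size did not. Hpgd was at 1.15 at resolution 0.2 and 1.12 with nothing regressed out, below 1.5-fold. It was also not past 1.5-fold in F columns. Ptgs2 is itself an immediate early gene, and the part of dissociation in its level was not tested.

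**Figure D2:**
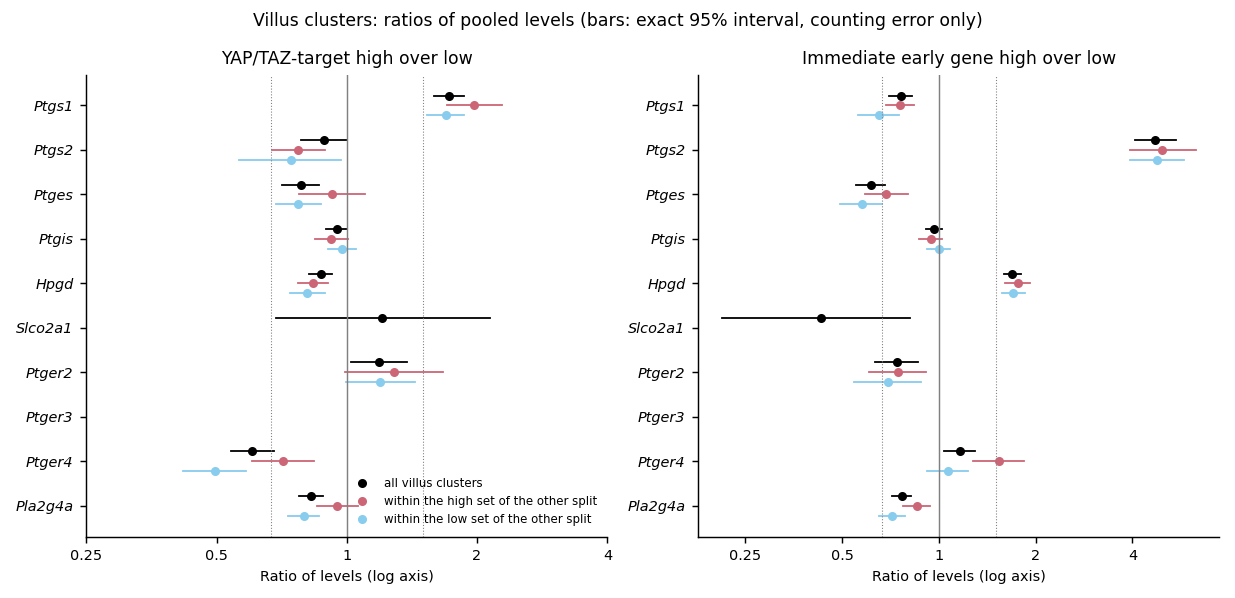
Ratio of the level in high over low villus clusters (log axis) for 9 genes, split by YAP/TAZ targets and by immediate early genes. Black points use all villus clusters, red and blue points the clusters high or low in the other list, bars are exact 95% intervals and dotted lines mark 1.5-fold. Ptgs2 stands apart on the immediate early gene split at 4.70, and Ptgs1 passes 1.5-fold on the YAP/TAZ split at 1.72.

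The relation was followed from cell to cell by ordering the cells of a set on their summed immediate early genes and dividing them into 3 equal groups, a division made after the data were seen. In villus cells Ptgs2 went from 4.56 to 26.7 and 62.8 CPM, a top-to-bottom ratio of 13.8 (10.4 to 18.7). Within single villus clusters this ratio was 21.9 (8.27 to 82.0) in cluster 1, 5.33 (2.84 to 10.9) in cluster 2, 3.28 (1.13 to 11.5) in cluster 6, 1.75 (1.36 to 2.25) in cluster 4 and 1.30 (1.002 to 1.69) in cluster 5, so it was above 1 in all 5. In FB4-like cells, whose top group reached 11147 CPM of immediate early genes, Ptgs2 was at 6.93, 16.6 and 15.6 CPM, a ratio of 2.24 (1.29 to 4.06). Immediate early genes at a level like that of the villus cells thus came with less Ptgs2 there. In the MC-like cluster they summed to 9088 CPM, while Ptgs2 was at 3.46 CPM. In FB5-like cells Ptgs2 was at 3.83, 13.5 and 20.5 CPM. Hpgd was at 93.7, 120 and 171 CPM over the groups in villus cells, a ratio of 1.83 (1.69 to 1.97). Within clusters 4, 5 and 6 this ratio was 1.38, 1.36 and 1.48 with intervals above 1, and in clusters 1 and 2 it was 0.925 (0.786 to 1.09) and 1.13 (0.942 to 1.34). Hpgd was at 399, 411 and 358 CPM in FB4-like cells, a ratio of 0.898 (0.825 to 0.979). In FB5-like cells it was at 288, 214 and 221 CPM, a ratio of 0.768 (0.631 to 0.935).

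**Figure D3:**
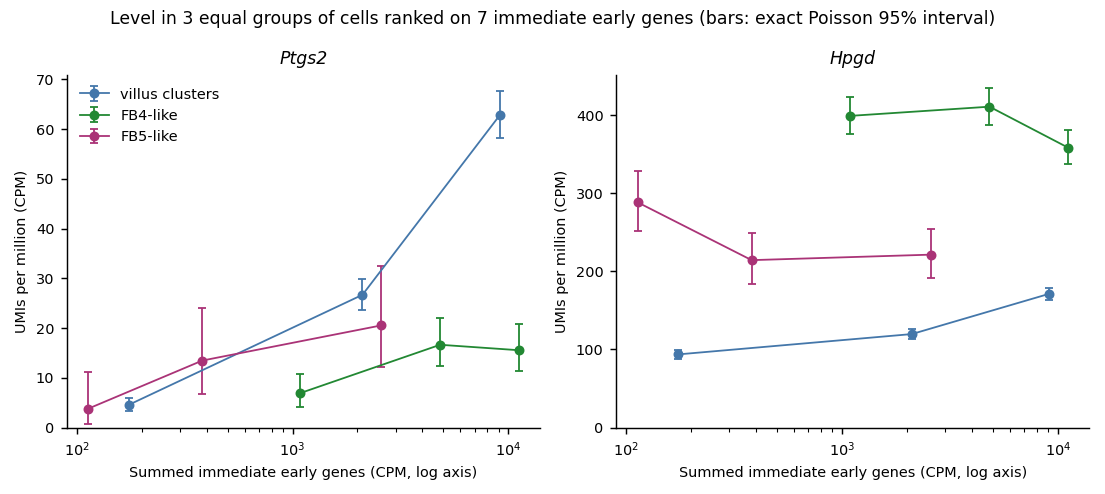
Level of Ptgs2 and Hpgd in CPM against the summed immediate early genes, in 3 equal groups of the cells of each set (villus, FB4-like, FB5-like), with exact 95% intervals. Ptgs2 climbs to 62.8 in villus cells and stays at 15.6 in the top group of FB4-like cells, while Hpgd is highest in FB4-like cells at every level.

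Levels do not say how many cells carry a transcript, so the counts were drawn down to 5000 UMIs per cell, and the 94 cells below that depth were dropped. A UMI was then found in 51.3% of cells for Ptgis, 44.7% for Hpgd, 39.7% for Pla2g4a, 25.5% for Ptgs1, 20.6% for Ptges, 16.4% for Ptger4, 8.99% for Ptger2, 8.17% for Ptgs2, 1.59% for Slco2a1 and 0.42% for Ptger3. Without thinning the shares ran from 1.07% for Ptger3 to 75.1% for Ptgis. Thinned vFB3-like cells had Ptgs1 in 68.2%, Ptges in 63.6% and Slco2a1 in 63.6%, and Hpgd in 0 of 44. Thinned FB4-like cells had Hpgd in 73.8% and Ptgs1 in 3.09%. Ptgs2 was found in 15.7% and 16.2% of cells in clusters 4 and 5.

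Synthesis needs a phospholipase, a cyclooxygenase and a synthase, which the cells could express together or apart. Among 4014 thinned cells 92 had UMIs of both Ptgs1 and Ptgs2, where 86.5 follow from the single shares within each cluster, a ratio of 1.06 (0.857 to 1.30). The pairs of Ptgs1 with Pla2g4a, Ptges and Ptgis lay at 1.01, 1.02 and 1.02, and those of Ptgs2 at 1.09, 0.979 and 1.02. Of the 7 intervals 0 excluded 1, so within clusters neither joint nor exclusive detection was found at this depth.

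The library's columns carry the marks M and F, and the study had split cells by Xist. The 1983 cells marked M had no Xist UMI and all 2125 marked F had at least 1, so sex and animal cannot be told apart. In the villus clusters 1 of 9 members, Hpgd, was past 1.5-fold higher in M (1.80% of all genes) and 0 lower (1.86%). Over the whole library Hpgd was at 226 CPM in M and 142 CPM in F, a ratio of 1.58 (1.52 to 1.66), with 1.60 (1.503 to 1.699) in the villus clusters and 1.66 (1.55 to 1.78) in the FB4-like cluster. It was higher in M in 9 of 10 clusters, with the interval above 1 in 7. These 9 include the vFB3-like cluster, where 1 UMI in M against 0 in F gives no direction. Ptger3 had 10 UMIs in M and 50 in F, a ratio of 0.247 (0.111 to 0.492). In the vFB3-like cluster the high levels were found in both marks. Ptgs1 was at 352 CPM in M and 259 CPM in F, with an interval of the ratio just above 1, Ptges at 261 and 216 CPM and Slco2a1 at 214 and 226 CPM.

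**Figure D4:**
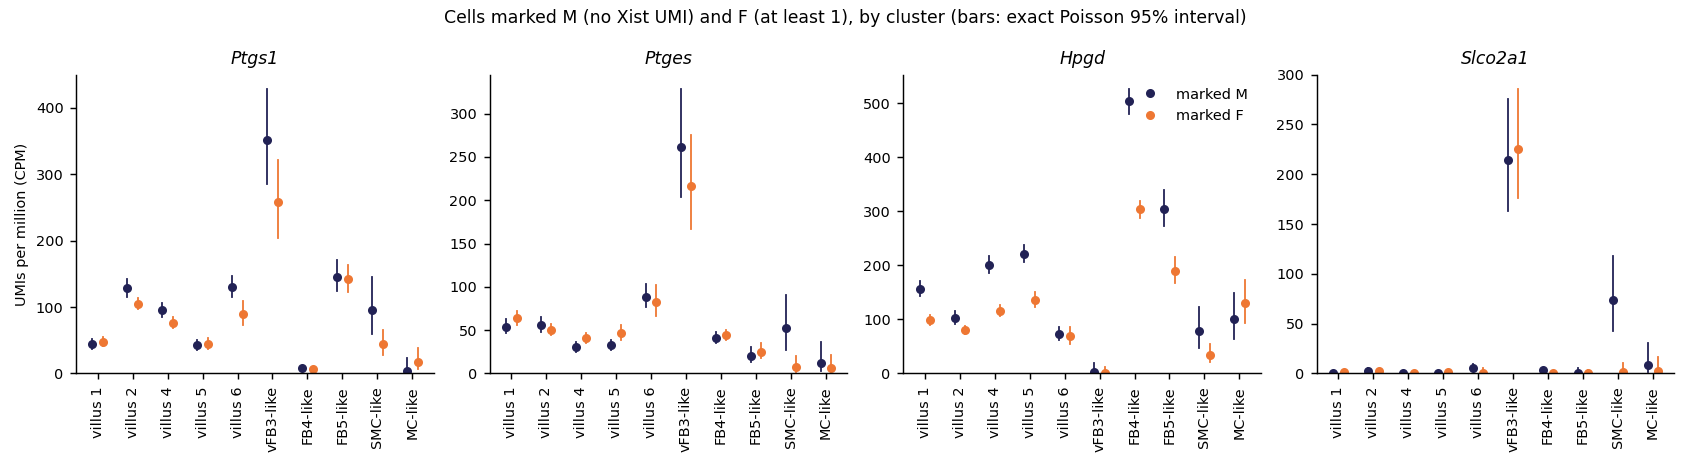
Level of Ptgs1, Ptges, Hpgd and Slco2a1 in CPM by cluster, in the cells marked M and F, with exact 95% intervals. Hpgd is higher in M in 9 of 10 clusters, in the vFB3-like cluster only by 1 UMI against 0. The vFB3-like peaks of the other 3 genes appear in both marks.

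Over the 10 clusters, which share 1 library and differ in depth, log2 levels of Ptgs1 ran most closely with Ptger2 (r = 0.97), and those of Hpgd most oppositely to Slco2a1 (r = -0.93). Ptger2 and Pla2g4a had r = 0.87 and Ptgs1 and Pla2g4a r = 0.80. Among all other genes of at least 200 UMIs, the nearest to Ptgs1 were Tmem123, Rdh10 and Slitrk6, to Ptgs2 Bcl10, Arfip1 and Tma16, and to Hpgd Cyp27a1, Bhlhe41 and Smpd1. The nearest to Ptges were Slc7a6, Pus10 and Mgat4b, to Ptgis Tfpt, Gpr27 and Mgat4a, to Slco2a1 Ptges3, Mfsd8 and Ahr, to Ptger2 Rdh10, Mpzl1 and Runx2, to Ptger4 Man2a2, Fam102b and Spats2, and to Pla2g4a Abca5, Cyb5rl and Cxcl16.

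Of 35 further genes of eicosanoid metabolism and signalling 32 were listed and 21 had at least 200 UMIs. Between clusters 6 of the 21 differed by more than 2-fold, against 24.5% of the 10383 genes with that many. In the FB4-like cluster 3 were higher than in the villus clusters (6.58% of all genes) and 4 lower (11.5%). The higher ones were the prostaglandin F receptor Ptgfr (38.8 and 11.4 CPM), the prostacyclin receptor Ptgir (10.1 and 2.48 CPM) and the monoacylglycerol lipase Mgll (137 and 38.6 CPM). In the MC-like cluster 4 were higher (12.1%) and 5 lower (9.54%), with Ptgir at 53.6 CPM, 21.6-fold (13.8 to 33.0) above the villus clusters, and the thromboxane receptor Tbxa2r at 48.4 CPM. In the FB5-like cluster 3 were higher (11.7%) and 6 lower (14.4%), and the exporter Abcc4 was at 17.8 CPM against 3.69 CPM. Ptgir (200 UMIs) and Abcc4 (211 UMIs) reached 200 only through the clusters where they were higher, so their place in these counts follows from their own values. In the SMC-like cluster 3 were higher (10.0%) and 2 lower (9.59%), with Mgll at 336 CPM. In the vFB3-like cluster 3 were higher (12.0%) and 4 lower (8.58%), and the aldose reductase Akr1b3, which can also make prostaglandin F2alpha, was at 361 CPM against 162 CPM. On the YAP/TAZ split 1 was higher (5.12%) and 3 lower (7.45%), with Tbxa2r at 38.6 and 14.9 CPM, a ratio of 2.59 (2.23 to 3.01), and Mgll at 0.337 (0.296 to 0.383). Tbxa2r had the same direction in the FB4-like split, at 3.10 (2.21 to 4.34). On the immediate early gene split 1 was higher (6.76%), Ptgfr at 2.41 (1.95 to 2.996), and 1 lower (2.81%).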

How the data were processed

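Droplet 3′ single-cell RNA sequencing (Chromium v3) of 1 library, LATS1/2 KO 1w, was used. Per the submitters' processing notes, the authors ran Cell Ranger 3.0.2 on mm10 and Seurat 3.0.1 (their methods name another Seurat release). Per the methods, they kept cells with 1000 to 6000 genes and at most 7% mitochondrial UMIs, and removed immune and endothelial clusters. The deposited values are the natural log of 1 plus UMIs per 10000 in each cell. From these, UMI counts were read back, and 100% of 13789523 values above 0 came out whole within 0.001. Library size runs from 1965 to 35727 UMIs per cell.

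Clusters were made with Seurat 5.3.0 (R 4.3.3) from 1973 of 2000 variable genes, without the members, the pathway list, YAP/TAZ targets and sex-linked genes, with UMI count and mitochondrial percent regressed out, 30 components and resolution 0.5. To count, a marker had to be detected in 10% or more of the cluster and stand 2-fold or more over the median cluster, and a name needed 80% of a list and 3 markers. This rule was set after cluster levels were seen. UMIs were summed per cluster (CPM, exact Poisson intervals), ratios have exact conditional binomial intervals, and shares of cells are binomial. A ratio needed 50 UMIs. Scrublet (scanpy 1.11.5) called 8 cells as doublets (0.195%), too few to have worked, so no doublets were removed. The calculation was tested on simulated data.

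The members and lists were chosen with earlier results of these data known. All members are named, and of the pathway list those with at least 200 UMIs. The FB4-like split, the 3 equal groups, the M and F contrasts and the pairs of villus clusters were chosen after seeing the data.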

Additional observations from a re-analysis of the deposited data

How the results depend on the processing

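No paired analysis was possible because only 1 library was analysed. The count of genes past 2-fold between clusters, 10 of 10, was 9 at resolution 0.2, 8 with a mitochondrial limit of 5% and 8 in M columns, and 10 under the other alternatives. The 6 genes found in at least 10% of cells thinned to 5000 UMIs became 4 at 2000 UMIs and 8 without thinning. The 0 of 7 pairs did not change with the depth. On the YAP/TAZ split the count of 2 fell to 1 at resolution 1.0 (Ptgs1), to 1 with the immediate early genes left out of clustering (Ptges, lower) and to 1 in F columns (Ptgs1), and with nothing regressed out it was 2 but of other genes (Ptges, Ptger4), Ptgs1 being at 1.42. On the immediate early gene split the count of 4 fell to 2 at resolution 0.2 (Ptgs1, Ptger4), to 2 at resolution 1.0 (Ptgs2, Hpgd), to 2 with nothing regressed out (Ptgs2, Ptger4) and to 1 in F columns (Ptgs2). It was 3 with the immediate early genes left out of clustering (Ptgs1, Ptgs2, Hpgd), with M and F columns integrated (Ptgs2, Hpgd, Slco2a1), and with the 5% limit, the free RNA bound subtracted or M columns (Ptgs2, Ptges, Hpgd in each), and 4 with the highest doublet scores left out. The cause was not tested. At resolution 0.2 both splits divided the villus cells at the same place, and the Ptgs2 ratio was 1.14.

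Of 593 ratios recomputed, 468 stayed within the interval of the reported value, 114 moved out of it, and 11 changed direction. In all 29 crossed a ratio of 1, and 18 of these had a reported interval that held 1, so the 11 given here are those with an interval that excluded it. With immediate early genes left out of clustering, Hpgd was at 1.02 and Ptger2 at 0.992 on the YAP/TAZ split, and Ptgis at 1.07 in the vFB3-like set. With nothing regressed out, Hpgd was at 1.03 on the YAP/TAZ split, Ptges at 1.04 and Pla2g4a at 1.04 on the immediate early gene split, and Ptgis at 1.06 (vFB3-like). At resolution 0.2, Ptges was at 1.28 and Pla2g4a at 1.21 on the immediate early gene split, and at resolution 1.0 Ptgis was at 1.12 (vFB3-like). In M columns Ptges was at 1.08 in the SMC-like cluster. With a mitochondrial limit of 5% no SMC-like cluster was named.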
